A study of Mus musculus with 92 samples.

Results

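Paneth cells are secretory cells at the base of small intestinal crypts that release antimicrobial proteins and also sit beside the stem cells, to which they supply Wnt and Notch ligands. Besides the defensins, their granules and secretome hold enzymes, lectins and proteases, and 6 such genes are described here: Lyz1, Ang4, Itln1, Mptx2, Mmp7 and Habp2. They were chosen by name, as rows whose gene symbol equalled one of these, and all 6 were found among the 54532 genes of the deposited count tables. In the sampled tissue, all 6 were higher in crypts than in villi, and in crypts and organoids in which both copies of Eif4g2 had been deleted all 6 were at lower levels than in the controls.

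Lyz1 encodes the lysozyme of Paneth granules, which cleaves bacterial cell walls, and its neighbour Lyz2 is the lysozyme of macrophages. Ang4 encodes a ribonuclease of the angiogenin family with bactericidal activity. Itln1 encodes intelectin, a lectin that binds microbial sugars and that goblet cells also make, and Mptx2 encodes a mucosal pentraxin, a member of a family of secreted pattern-recognition proteins. Mmp7 encodes matrilysin, the metalloprotease that activates mouse prodefensins, and Habp2 encodes a secreted serine protease that binds hyaluronan. Eif4g2 encodes a translation initiation factor related to eIF4G that lacks the part that binds the cap-binding protein.

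In the coordinates of the count tables, which on GRCm38 equal those of GENCODE vM21 for all 6 genes, Lyz1 lies on the minus strand at chr10:117287797-117292868 with 4 exons. Ang4 lies on the minus strand at chr14:51763878-51773590 with 2 exons, Itln1 on the minus strand at chr1:171518122-171535294 with 8 exons, and Mptx2 on the minus strand at chr1:173274382-173277777 with 2 exons. Mmp7 lies on the plus strand at chr9:7692090-7699585 with 6 exons, and Habp2 on the plus strand at chr19:56287137-56320822 with up to 14 exons. All are protein-coding genes counted over their exons, from 709 bases for Ang4 to 3193 for Habp2. Mmp7 overlaps AV064505 and Habp2 overlaps Nrap on the opposite strand. The libraries were strand-specific, but the strand setting of the counting is not given in the sources used here, so reads of such pairs may be mixed. Lyz2 lies 5.5 kb from Lyz1 with no coding gene between them, Mptx1 is the close relative of Mptx2, and how reads shared by such relatives were assigned is not given either, so levels of Lyz1, Ang4 and Mptx2 carry that uncertainty.

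The promoters of 3 of the genes are printed because their transcripts mark the range of responses described further on. Lyz1 was the most abundant per kilobase in control crypts, and Mptx2 fell furthest after Eif4g2 deletion in crypts and organoids. Mmp7 departed from the others in organoids treated with A-485. Each window runs from 250 bases before to 50 after the start site of a RefSeq transcript (GRCm38.p6), 5′ to 3′ on the strand of the gene, with matches to the motifs searched in capitals. All 6 genes matched a RefSeq promoter.
Lyz1 (chr10:117292819-117293118, minus strand): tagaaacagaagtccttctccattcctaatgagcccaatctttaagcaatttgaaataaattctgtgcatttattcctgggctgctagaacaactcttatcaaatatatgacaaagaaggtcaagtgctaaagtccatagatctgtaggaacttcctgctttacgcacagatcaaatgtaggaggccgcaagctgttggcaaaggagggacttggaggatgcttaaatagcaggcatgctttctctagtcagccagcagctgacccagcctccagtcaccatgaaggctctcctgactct
Mptx2 (chr1:173277707-173278006, minus strand): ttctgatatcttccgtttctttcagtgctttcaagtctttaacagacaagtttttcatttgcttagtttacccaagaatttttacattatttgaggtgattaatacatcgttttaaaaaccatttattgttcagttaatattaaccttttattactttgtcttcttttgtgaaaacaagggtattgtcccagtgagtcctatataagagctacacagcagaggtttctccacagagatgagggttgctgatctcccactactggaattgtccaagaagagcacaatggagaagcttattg
Mmp7 (chr9:7691840-7692139, plus strand): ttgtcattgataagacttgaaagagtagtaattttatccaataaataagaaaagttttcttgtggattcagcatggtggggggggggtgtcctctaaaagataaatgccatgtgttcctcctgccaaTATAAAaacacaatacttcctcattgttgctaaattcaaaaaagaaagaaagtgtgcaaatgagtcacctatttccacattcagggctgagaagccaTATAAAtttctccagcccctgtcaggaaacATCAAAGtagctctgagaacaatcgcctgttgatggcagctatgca
The motifs searched on both strands were the TATA box written as TATAAA, the Tcf/Lef factor motif written as CTTTGAT, and its variant CTTTGTT. No match overlapped another. In the Mmp7 window, TATAAA lay 26 and 123 bases before the start, and CTTTGAT lay on the opposite strand 5 bases after it. A further RefSeq start of Mmp7 has a window at chr9:7692091-7692390 that holds the same CTTTGAT match. No match was found in the windows of the other 5 genes. Of all 32851 promoter windows, 13.6% hold TATAAA, 3.7% hold CTTTGAT and 5.9% hold CTTTGTT on either strand. These are matches of letters and no statement on binding.

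The data are 92 RNA sequencing libraries in 21 groups from mouse intestine and its cultures. Crypts and villi came from 2 kinds of mice with floxed Eif4g2, all of which carried CreER, a Cre recombinase activated by tamoxifen, and received tamoxifen, so there were no untreated or Cre-free mice. In Rosa26(CreER) mice, in which Cre is expressed in most cell types, Eif4g2(flox/flox) crypts (n = 4) and villi (n = 5) were compared with Eif4g2(flox/+) crypts and villi (n = 5 each), on day 9. In Vil1(CreER) mice, in which the villin promoter drives Cre in the intestinal epithelium, flox/flox crypts (n = 3) and villi (n = 6) were compared with flox/+ crypts and villi (n = 4 each), 3 months after tamoxifen at 100 mg/kg on 4 days. The flox/+ controls thus carried a deletion of 1 Eif4g2 copy.

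Small intestinal organoids and fetal intestinal spheroids, which are cultures of intestinal epithelium, were grown in medium with EGF, Noggin and Rspondin and carried CreER. In a first set, 3 Eif4g2(flox/flox) organoid lines received 0.5 µM 4-hydroxytamoxifen (4-OHT) for 24 h or DMSO and were collected on day 6 (n = 3 each). A line of this set was also among those treated with A-485. In a second set, Eif4g2(flox/flox), Eif4g2(flox/+) and Eif4g2(+/+) organoids, the last with CreER alone, all received 4-OHT (n = 4 each). Spheroids of 6 flox/flox and 5 flox/+ lines received DMSO or 4-OHT and were collected on day 6. Organoids of 4 lines that received no 4-OHT, 3 of them flox/flox and 1 Eif4g2(+/+), were treated for 4 days with DMSO or with 3, 5 or 10 µM A-485, an inhibitor of the acetyltransferases p300 and CBP (n = 4 each). Strain and age of the mice and, for the Rosa26(CreER) mice, the tamoxifen dose and the event from which day 9 is counted are not given in the labels.

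Libraries held 8652040 to 37611126 counts assigned to genes. Eif4g2 was at 67.9 to 98.2 CPM, which are counts relative to library size, in flox/flox crypts and 337 to 357 in flox/+ crypts of Rosa26(CreER) mice, and groups with both copies deleted did not overlap their controls in any set. In Vil1(CreER) crypts the ranges were 231 to 239.7 and 437 to 488 CPM, so Eif4g2 transcripts remained 3 months after deletion. CPM were scaled by the trimmed mean of M values (TMM) within each set, and differences are log2 fold changes ± SE from edgeR's quasi-likelihood test, called at a Benjamini-Hochberg adjusted p under 0.05 over all genes tested. Sets were scaled separately and levels were not tested across them. The labels name separate mice and lines, except for the Eif4g2(+/+) organoids of the second set. In that set each flox/flox and flox/+ library has its own line name, but nothing says that the Eif4g2(+/+) libraries came from separate cultures. These libraries are in the fits of that set, so its p-values may in part measure only technical spread. In these bulk samples, fewer Paneth cells and less RNA of these genes per cell cannot be told apart.

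In crypts of flox/+ Rosa26(CreER) mice, where each of the 6 genes had its highest group mean of the 21 groups, the level per kilobase of exon was 7783 ± 1008 CPM (mean ± SD, n = 5) for Lyz1, 2584 ± 357 for Itln1, 1015 ± 163 for Ang4, 604 ± 43.9 for Mptx2, 261 ± 42.9 for Mmp7 and 14.1 ± 1.80 for Habp2. Habp2 was thus far the least abundant of the 6, and the means of neighbours in this order differed by more than the sum of their SDs. Together the 6 genes took 1.76 to 2.26% of all counts in these crypts and 0.00759 to 0.0116% in the villi of the same mice.

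**Figure D1:**
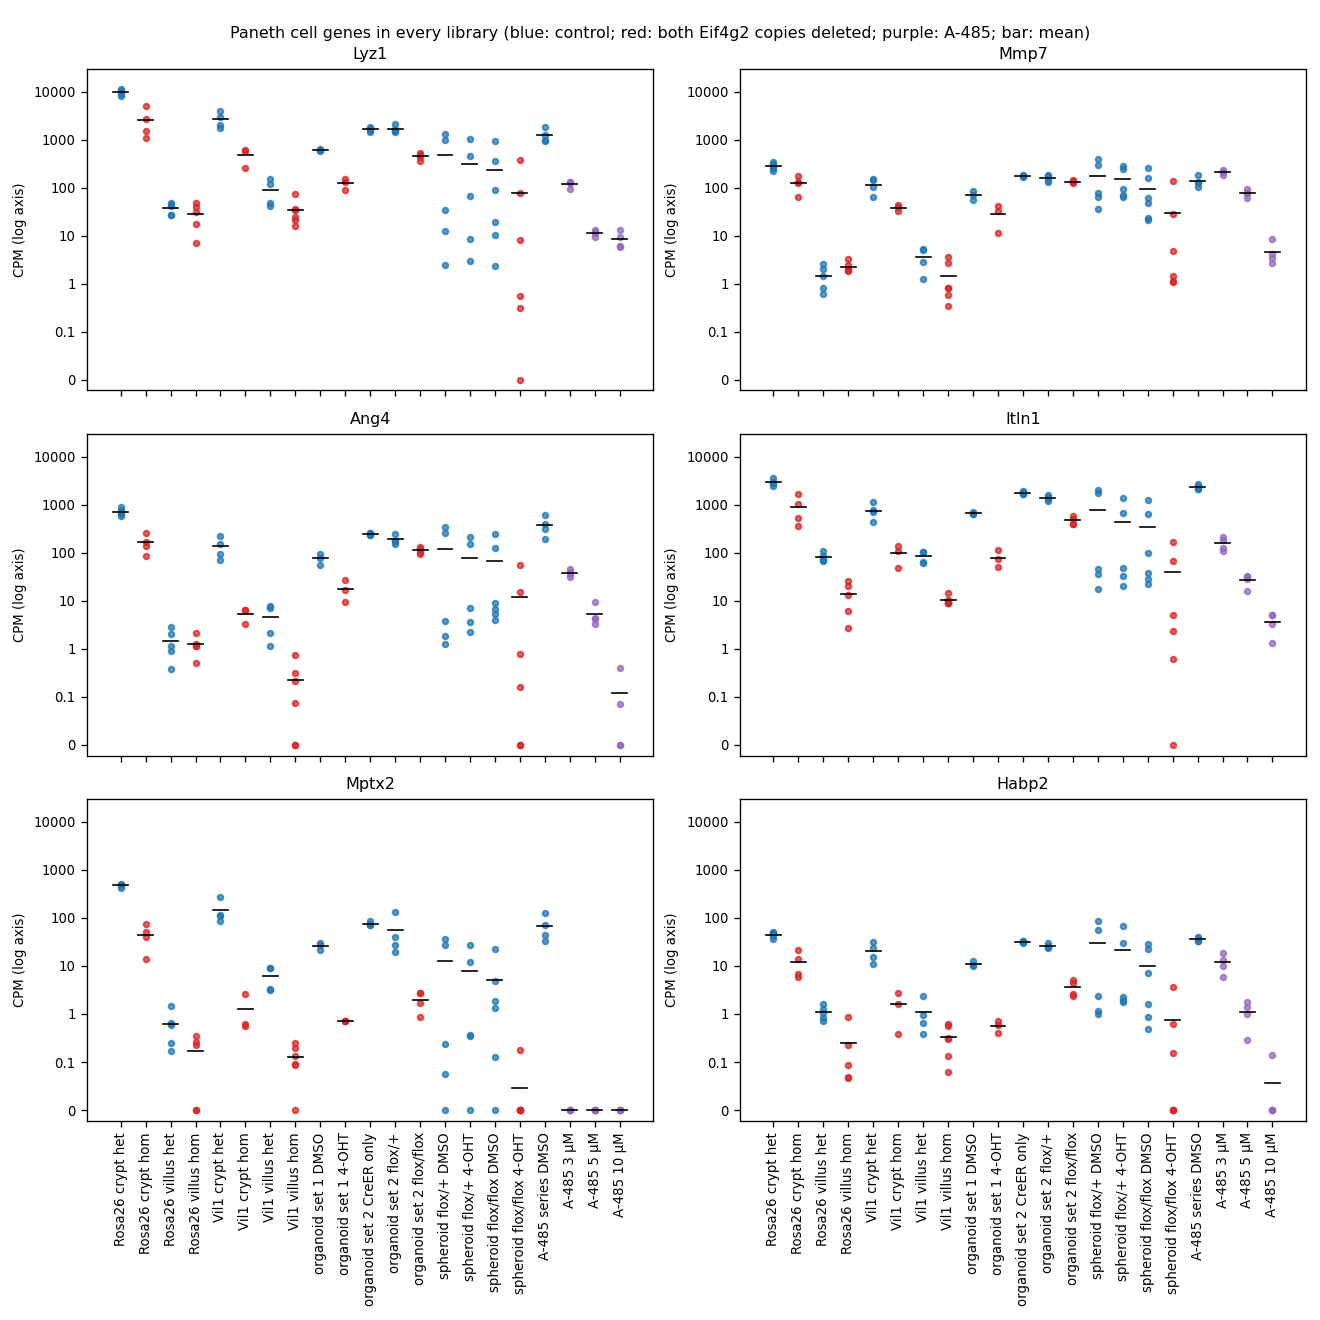
Level of each of the 6 genes in every library, in TMM-scaled CPM on a log axis, for the 21 groups of tissue, organoids, spheroids and A-485 treatment. Points are libraries and bars are group means, red where both Eif4g2 copies were deleted, blue for controls and purple for A-485. Het and hom stand for flox/+ and flox/flox, and values of 0 sit at the bottom tick. Each gene has its highest mean in flox/+ crypts of Rosa26(CreER) mice, and Lyz1 runs there from 8188 to 11388 CPM.

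Since Paneth cells sit in crypts, crypts were compared with villi of the same mice. Fitted with the animal as a block, all 6 genes were higher in crypts in flox/+ and flox/flox mice of both drivers, against 40.2% and 34.6% of all tested genes called higher in crypts of Rosa26(CreER) mice and 34.5% and 32.6% in Vil1(CreER) mice. In flox/+ Rosa26(CreER) mice the log2 difference ran from 5.17 ± 0.13 for Itln1 (adjusted p = 1.99e-07) to 9.63 ± 0.37 for Mptx2 (adjusted p = 4.64e-07). Itln1 had the smallest crypt excess there and in flox/+ Vil1(CreER) mice, where it was 3.19 ± 0.16 (adjusted p = 2.16e-06). By group means in flox/flox mice, the crypt excess of Habp2 was smaller than that of Itln1. In Rosa26(CreER) mice the crypt and villus means were 11.9 and 0.254 CPM for Habp2, and 909 and 13.7 for Itln1. The same pairs were 1.58 and 0.332 CPM, and 99.3 and 10.4, in Vil1(CreER) mice.

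The order of the group means differed between the genes. For Lyz1, crypts of flox/+ Rosa26(CreER) mice (9829 CPM) were followed by those of flox/+ Vil1(CreER) mice (2668) and flox/flox Rosa26(CreER) mice (2622), then by flox/+ and Eif4g2(+/+) organoids (1693 and 1646), and the latter pairs lay within their SDs of each other. The lowest means of Lyz1 were at 5 and 10 µM A-485 (11.5 and 8.68 CPM), under all villi (28.7 to 91.5). Ang4, Itln1 and Habp2 had their next highest mean in organoids with DMSO from the A-485 set, at 378 ± 178, 2360.3 ± 267 and 36.5 ± 3.55 CPM. All 3 were lowest at 10 µM A-485, at 0.118, 3.71 and 0.0358 CPM.

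Mptx2 was highest in flox/+ crypts of both kinds of mice, with 146 ± 85.3 CPM in flox/+ Vil1(CreER) crypts, 76.4 ± 7.91 in Eif4g2(+/+) organoids and 26.2 ± 4.25 in organoids of the first set with DMSO. Its lowest means, at 0, were those of all 3 A-485 doses. The next highest mean of Mmp7 after flox/+ crypts of Rosa26(CreER) mice was at 3 µM A-485 (210.4 ± 20.7 CPM), where Lyz1 was at 120.1 ± 16.5, and its lowest means were in villi, from 1.47 to 3.60 CPM.

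Whether loss of Eif4g2 in most cell types alters Paneth transcripts was asked in Rosa26(CreER) crypts, taken on day 9. All 6 genes fell, against 11.6% of the 15846 tested genes called lower, and none of the 6 overlapped between genotypes, against 14.1% of tested genes that lay lower without overlap. Lyz1 was at 5093, 2751, 1545 and 1097 CPM in the 4 flox/flox crypts and at 11388, 10448, 10206, 8917 and 8188 in the 5 flox/+ crypts. Every flox/flox value lay under every flox/+ value, although the flox/flox crypts themselves spread widely, with replicate 1 lowest and replicate 5 highest. Lyz1 fell by 1.88 ± 0.39 on the log2 scale (adjusted p = 0.011), a 3.68-fold lower level. Ang4, the other bactericidal enzyme, fell from 719.7 ± 116 to 164 ± 72.1 CPM (mean ± SD), a log2 change of -2.09 ± 0.27 (adjusted p = 0.00136).

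The pentraxin gene Mptx2 had the largest fall of the 6 in these crypts. Its level was 74.2, 50.7, 40.4 and 14.2 CPM in flox/flox and 498, 497, 495, 491 and 418 CPM in flox/+ crypts. The flox/+ values were tightly grouped and the flox/flox values were a small part of them in every mouse. Its log2 change was -3.38 ± 0.40 (adjusted p = 0.0009), 10.4-fold lower. The lectin gene Itln1 was at 1705, 1030.4, 528 and 371 CPM in flox/flox against 2486 to 3590.3 CPM in flox/+ crypts. Its groups did not overlap, and its log2 change was -1.67 ± 0.39 (adjusted p = 0.0171), which was lost at an adjusted p of 0.0505 without flox/flox replicate 4.

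Of the proteases, Mmp7 was at 173, 129, 123 and 65.5 CPM in flox/flox and at 339, 309, 265, 263 and 221 CPM in flox/+ crypts. These groups came closest to each other, yet did not overlap. Its log2 change of -1.14 ± 0.24 was the smallest of the 6 (adjusted p = 0.0116, and 0.0548 with the replicate number as a block). Habp2 fell from 45.2 ± 5.74 to 11.9 ± 7.11 CPM, a log2 change of -1.88 ± 0.34 (adjusted p = 0.00577). The median change of the 6 genes was -1.88, against 0.04 over all genes tested.

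Other quantities were also set against genotype in these crypts. Mitochondrial transcripts took 13.7 to 25.2% of counts in flox/flox and 6.24 to 12.4% in flox/+ crypts. The summed level of 5 macrophage markers was 34.0 to 1562 CPM in flox/flox and 16.9 to 188 in flox/+ crypts, with 0 of 5 called, against 20.2% of genes in either direction. That of 5 stromal markers was 18.2 to 1390 against 8.37 to 399 CPM, and both sums overlapped between genotypes. Lyz2, the macrophage lysozyme beside Lyz1, was at 26.2 to 1325 CPM in flox/flox and 10.4 to 138 in flox/+ crypts and was not called (log2 difference 2.95 ± 0.99, adjusted p = 0.0622), so its difference was opposite in sign to that of Lyz1. Y-linked transcripts exceeded 1 CPM in all 5 flox/+ but 1 of 4 flox/flox crypts. In a fit with a Y-linked covariate, the log2 changes ran from -2.01 for Mmp7 to -5.00 for Mptx2. There the genotypes are compared through that 1 flox/flox crypt alone (replicate 1, the lowest of its group for Lyz1). Y-linked transcripts and genotype cannot be told apart in the other 3. Within the mice with lower animal numbers and within those with higher ones, each gene was lower in flox/flox crypts, for Lyz1 by a log2 difference of -3.20 in the former (1 against 2 mice, the 1 being replicate 1 again) and -1.78 in the latter (3 against 3). The part of mitochondrial, macrophage and stromal transcripts in the falls was not tested.

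In villi of the same mice the 6 genes were at lower levels than in crypts. Of the 5 that passed the filter on low counts, 2 were called lower in flox/flox villi, against 18.2% of tested genes. Itln1 was at 26.4, 19.9, 13.2, 6.12 and 2.74 CPM in flox/flox and at 109, 87.2, 73.5, 72.5 and 67.7 CPM in flox/+ villi. Its groups did not overlap, and its log2 change of -2.62 ± 0.52 (adjusted p = 0.0044) was called. Habp2 was at 0.254 ± 0.347 against 1.09 ± 0.36 CPM (log2 change -2.07 ± 0.67, adjusted p = 0.0335), with replicate 5 of flox/flox inside the flox/+ range, and was called in 3 of 10 fits that each left out a library.

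Lyz1 was at 28.7 ± 16.5 CPM in flox/flox and 38.3 ± 10.3 in flox/+ villi, with overlapping groups and a log2 difference of -0.45 ± 0.43 that was not called (95% interval -1.41 to 0.50). Mmp7, at 2.28 ± 0.578 and 1.48 ± 0.804 CPM, and Ang4, at 1.25 ± 0.604 and 1.48 ± 0.98, were not called either (log2 differences 0.56 and -0.28). Mptx2 was at 0 to 1.45 CPM in villi and was not tested. Whether the effect of genotype differed between crypts and villi was tested as an interaction, which was called for Mmp7 alone, against 3.06% of genes called in that direction: the interaction, crypt effect minus villus effect, was -1.80 ± 0.38 (log2; adjusted p = 0.0277). That call was kept in 4 of 9 fits that each left out an animal.

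In Vil1(CreER) mice, where deletion was driven in the epithelium and tissue was taken after 3 months, all 6 genes again fell in crypts, against 17.7% of 16954 tested genes, with no overlap between the groups, against 21.9% of tested genes lower without overlap. Lyz1 was at 621, 587 and 252 CPM in the 3 flox/flox and at 3953, 2917, 2018 and 1786 CPM in the 4 flox/+ crypts. The highest flox/flox crypt stayed well under the lowest flox/+ crypt. Lyz1 had a log2 change of -2.45 ± 0.43 (adjusted p = 0.00606), 5.47-fold lower. Ang4 was at 6.55, 6.45 and 3.26 against 226, 154, 94.4 and 71.6 CPM. All flox/flox values were far under the lowest control. The log2 change of Ang4 was -4.64 ± 0.55 (adjusted p = 0.00204).

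Mptx2 had the largest fall here too. It was at 2.57, 0.613 and 0.572 CPM in flox/flox and at 273, 114, 111 and 87.2 CPM in flox/+ crypts, where replicate 1 stood above the other controls. The groups were separated by a wide gap, with a log2 change of -6.90 ± 0.83 (adjusted p = 0.00233), 119-fold lower. Itln1 fell from 761 ± 286 to 99.3 ± 46.3 CPM (log2 change -2.93 ± 0.49, adjusted p = 0.00586). Habp2 was at 2.76, 1.59 and 0.383 against 32.0, 23.5, 15.0 and 10.8 CPM. Its groups did not overlap and its log2 change was -3.64 ± 0.70 (adjusted p = 0.0108). Mmp7 again had the smallest fall, from 115 ± 40.3 to 38.6 ± 5.32 CPM (log2 change -1.58 ± 0.31, adjusted p = 0.00973). The median change of the 6 was -3.29, against 0.01 over all genes.

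Mitochondrial transcripts took 30.4 to 40.3% of counts in flox/flox and 17.5 to 30.8% in flox/+ crypts of Vil1(CreER) mice. The summed level of the macrophage markers was 32.1 to 53.9 CPM in flox/flox and 8.33 to 20.1 in flox/+ crypts. Of these markers, 5 of 5 were called higher, against 11.6% of tested genes. Lyz2 was called higher (log2 change 1.76 ± 0.47, adjusted p = 0.0329) while Lyz1 fell, and the part of these transcripts in the falls was not tested. In the villi 5 of the 6 genes were called lower, against 21.6% of tested genes. Itln1 was at 8.91 at the lowest, 9.59 at the median and 14.7 at the highest in the 6 flox/flox villi and at 106, 104, 65.5 and 62.0 CPM in the 4 flox/+ villi. The groups were far apart, with a log2 change of -3.04 ± 0.19 (adjusted p = 1.06e-07). Mptx2 fell from 6.17 ± 3.35 to 0.125 ± 0.0876 CPM (log2 change -5.54 ± 0.52, adjusted p = 3.85e-06) and Ang4 from 4.54 ± 3.36 to 0.224 ± 0.282 CPM (log2 change -4.27 ± 0.80, adjusted p = 0.0011), both without overlap.

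Lyz1 and Habp2 were called in Vil1(CreER) villi with overlapping groups. Lyz1 was at 15.9 at the lowest, 29.5 at the median and 74.5 at the highest CPM in flox/flox and at 156, 120.4, 48.7 and 41.3 CPM in flox/+ villi (log2 change -1.42 ± 0.49, adjusted p = 0.0419), and Habp2 at 0.332 ± 0.222 and 1.08 ± 0.863 CPM (log2 change -1.72 ± 0.60, adjusted p = 0.034). Leaving out a library in turn kept the call in 3 of 10 fits for Lyz1 and 5 of 10 for Habp2, and both were lost with the replicate number as a block (adjusted p = 0.159 and 0.116). Mmp7, at 1.47 ± 1.32 against 3.60 ± 1.92 CPM, had a log2 difference of -1.29 ± 0.59 and was not called (adjusted p = 0.0963). The interaction of genotype and tissue was called for Lyz1 (crypt effect minus villus effect -1.32 ± 0.38, log2, adjusted p = 0.047) and Habp2 (-2.24 ± 0.57, adjusted p = 0.0307), against 7.98% of genes in that direction. Of 7 fits that each left out an animal, 1 kept the call for Lyz1 and 2 kept it for Habp2.

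**Figure D2:**
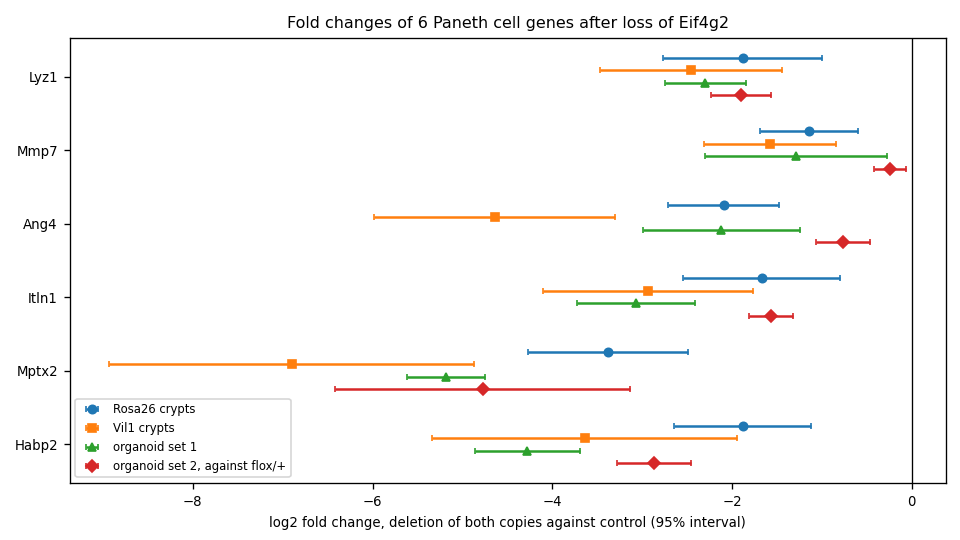
Log2 fold changes of the 6 genes after deletion of both Eif4g2 copies in Rosa26(CreER) crypts, Vil1(CreER) crypts and the 2 organoid sets, with 95% intervals from edgeR's quasi-likelihood fit. Values left of 0 are lower after deletion. In each of the 4 comparisons Mptx2 lies farthest from 0, down to -6.90, and Mmp7 nearest, at -1.58 to -0.25.

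Organoids allowed the same question in cultured epithelium, where macrophage lysozyme was nearly absent (Lyz2 at most 0.770 CPM in any organoid library). In the first set, 5 of the 6 genes fell with 4-OHT, against 17.2% of 15297 tested genes, and all 6 were lower in 3 of 3 lines. Lyz1 was at 132, 149 and 88.0 CPM with 4-OHT and at 582, 627 and 606 CPM with DMSO in lines 1, 2 and 3. The DMSO values lay close together and all 4-OHT values lay far under them. The log2 change of Lyz1 was -2.30 ± 0.19 (adjusted p = 0.000423). Mptx2 was at 0.728, 0.707 and 0.713 against 21.4, 29.4 and 27.7 CPM. It was close to absent after 4-OHT in every line, with a log2 change of -5.18 ± 0.19 (adjusted p = 6.14e-05), 36.3-fold lower. Habp2 was at 0.576, 0.707 and 0.403 against 9.81, 10.5 and 12.6 CPM, a log2 change of -4.28 ± 0.25 (adjusted p = 0.000203).

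Itln1 fell from 668 ± 50.5 to 79.7 ± 31.4 CPM (log2 change -3.07 ± 0.28, adjusted p = 0.000532) and Ang4 from 76.4 ± 19.0 to 17.6 ± 8.66 CPM (log2 change -2.12 ± 0.37, adjusted p = 0.00493). Mmp7 was at 33.5, 42.3 and 11.3 CPM with 4-OHT and 69.9, 86.7 and 55.8 CPM with DMSO. The groups did not overlap, but the log2 difference of -1.29 ± 0.43 was not called (adjusted p = 0.0548). With the line as a block it was -1.44 ± 0.25 and called (adjusted p = 0.00618, against 21.1% of genes called lower in that fit). Mptx1, the relative of Mptx2, also fell, from 10.9 ± 3.23 to 0.0112 ± 0.0194 CPM. The median change of the 6 genes was -2.68, against 0.03 over all genes.

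In the second set, where every group received 4-OHT, all 6 genes fell in flox/flox against flox/+ organoids (24.3% of 14220 tested genes were called lower) and against Eif4g2(+/+) organoids with CreER (23.5%). The 2 comparisons share the flox/flox libraries. Lyz1 was at 537, 490.3, 436 and 355 CPM in flox/flox, 2155, 1673, 1489 and 1456 in flox/+ and 1863, 1689, 1565 and 1466 in Eif4g2(+/+) organoids. The control groups overlapped each other, and flox/flox values lay under all of them. The log2 changes of Lyz1 were -1.90 ± 0.15 (adjusted p = 1.6e-06) and -1.86 ± 0.15 (adjusted p = 1.93e-06). Itln1 was at 472 ± 79.3, 1391 ± 159 and 1764 ± 113 CPM in the same order, with log2 changes of -1.57 ± 0.11 (adjusted p = 1.94e-07) and -1.90 ± 0.11 (adjusted p = 3.9e-08).

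Mptx2 was at 2.78, 2.69, 1.68 and 0.866 CPM in flox/flox, 133, 41.1, 27.3 and 19.3 in flox/+ and 87.7, 75.9, 71.2 and 70.7 in Eif4g2(+/+) organoids. Flox/+ replicate 1 stood high above the other flox/+ libraries, and all controls exceeded all flox/flox libraries. The log2 changes were -4.77 ± 0.73 (adjusted p = 0.000518) and -5.25 ± 0.73 (adjusted p = 0.000298). Habp2 was at 5.18, 4.46, 2.57 and 2.35 CPM in flox/flox, 29.9, 26.1, 25.1 and 23.8 in flox/+ and 33.1, 32.4, 30.9 and 29.8 in Eif4g2(+/+) organoids. Its flox/flox values were under every control, with log2 changes of -2.87 ± 0.19 (adjusted p = 8.29e-08) and -3.13 ± 0.19 (adjusted p = 3.71e-08). Ang4 fell less, from 191 ± 42.3 and 247 ± 13.0 to 113 ± 15.7 CPM (log2 changes -0.76 ± 0.14, adjusted p = 0.000763, and -1.12 ± 0.14, adjusted p = 4.67e-05).

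Mmp7 was at 142, 138, 133 and 126 CPM in flox/flox, 181, 176, 145 and 133 in flox/+ and 182, 175, 173 and 166 in Eif4g2(+/+) organoids. Flox/flox and flox/+ overlapped, while flox/flox lay under all Eif4g2(+/+) libraries. Its log2 changes of -0.25 ± 0.08 (adjusted p = 0.0261) and -0.37 ± 0.08 (adjusted p = 0.0023) were the smallest of the 6. The former was lost with the replicate number as a block (adjusted p = 0.128) and in 4 of 8 fits that each left out a library. Between flox/+ and Eif4g2(+/+) organoids, where 1 functional copy is compared with 2, edgeR called 0 of the 6 genes, as did DESeq2, against 0.113% of tested genes, and 2 had an unadjusted p under 0.05 (Ang4 and Itln1). The 95% interval of that log2 difference was -0.28 to 0.37 for Lyz1, -0.57 to -0.10 for Itln1 and -1.67 to 0.72 for Mptx2.

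A-485 was tested in organoids in which Eif4g2 had not been deleted, at 3 doses that share the DMSO libraries. At 3 µM, 5 of the 6 genes fell, against 8.42% of 13724 tested genes called lower. At 5 and 10 µM all 6 fell, against 25.1% and 32.6%. Lyz1 was at 1835, 1261, 969 and 937 CPM in lines 1 to 4 with DMSO, 96.0, 123, 131 and 130.0 at 3 µM, 13.2, 12.0, 11.6 and 9.43 at 5 µM and 13.0, 5.83, 6.22 and 9.63 at 10 µM. The line with the highest DMSO value had the lowest value at 3 µM, and no dose group overlapped DMSO. The log2 changes were -3.38 ± 0.25, -6.75 ± 0.29 and -7.18 ± 0.30 (adjusted p = 8.27e-08, 4.78e-11 and 9.46e-12). From 3 to 5 µM Lyz1 fell further by 3.37 ± 0.25 (adjusted p = 1.39e-06), among 5 genes that did so, against 13.0% of genes.

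From 5 to 10 µM, 4 of the 6 genes fell again, against 12.4% of genes, and Lyz1 did not pass the test (log2 difference -0.43 ± 0.25, 95% interval -0.96 to 0.11, adjusted p = 0.286). Ang4 was at 615, 393, 195 and 307 CPM with DMSO, 40.2, 46.1, 30.8 and 36.3 at 3 µM, 9.68, 4.40, 3.27 and 4.24 at 5 µM and 0.0716, 0.402, 0 and 0 at 10 µM. Its groups did not overlap between any neighbouring doses, and the log2 changes from DMSO were -3.30 ± 0.37, -6.10 ± 0.43 and -11.38 ± 0.63 (adjusted p = 1.48e-05, 1.98e-08 and 4.07e-10). Itln1 was at 2360.3 ± 267 CPM with DMSO and at 159 ± 48.5, 27.2 ± 7.71 and 3.71 ± 1.82 at the rising doses (log2 changes -3.89 ± 0.30, -6.43 ± 0.34 and -9.27 ± 0.39).

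Mptx2 was at 69.7, 129, 33.5 and 43.3 CPM with DMSO, a total of 3499 counts, and had 0 counts in all 12 treated libraries. Against a floor of 3 counts per library it was at least 266-fold lower at 3 µM, 293-fold at 5 µM and 291-fold at 10 µM, and it was called at each dose (adjusted p = 0.000191, 3.3e-05 and 1.72e-05). Habp2 fell less at the lowest dose. It was at 38.2, 33.4, 33.8 and 40.7 CPM with DMSO, 5.93, 18.4, 13.3 and 10.1 at 3 µM, 1.81, 1.01, 1.38 and 0.289 at 5 µM and 0.143, 0, 0 and 0 at 10 µM. Each dose lay under the one before without overlap, with log2 changes of -1.61 ± 0.36 at 3 µM and -4.96 ± 0.43 at 5 µM (adjusted p = 0.00395 and 5.53e-08). At 10 µM only 2 counts remained against 1860 with DMSO, a ratio of 970 with an exact 95% counting interval of 268 to 8014.

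Mmp7 departed from the other 5. It was at 185, 134, 105 and 126 CPM in lines 1 to 4 with DMSO, 214, 182, 215 and 231 at 3 µM, 94.7, 60.03, 79.5 and 79.5 at 5 µM and 8.38, 4.09, 3.44 and 2.66 at 10 µM. At 3 µM it was higher than with DMSO in 4 of 4 lines, with 3 of the 4 treated values above the whole DMSO range, at 5 µM all values lay under DMSO, and at 10 µM it was nearly gone. The log2 difference at 3 µM was 0.61 ± 0.23 and was not called (95% interval 0.13 to 1.10, adjusted p = 0.0727, against 10.8% of genes called higher). With the line as a block it was 0.65 ± 0.17 and called higher (adjusted p = 0.0101, against 13.7%), and it was called in 1 of 8 fits that each left out a library. At 5 µM Mmp7 fell by 0.81 ± 0.23 (adjusted p = 0.00791) and at 10 µM by 4.86 ± 0.28 (adjusted p = 2.19e-10). The step from 5 to 10 µM was -4.05 ± 0.28 (adjusted p = 2.16e-08).

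**Figure D3:**
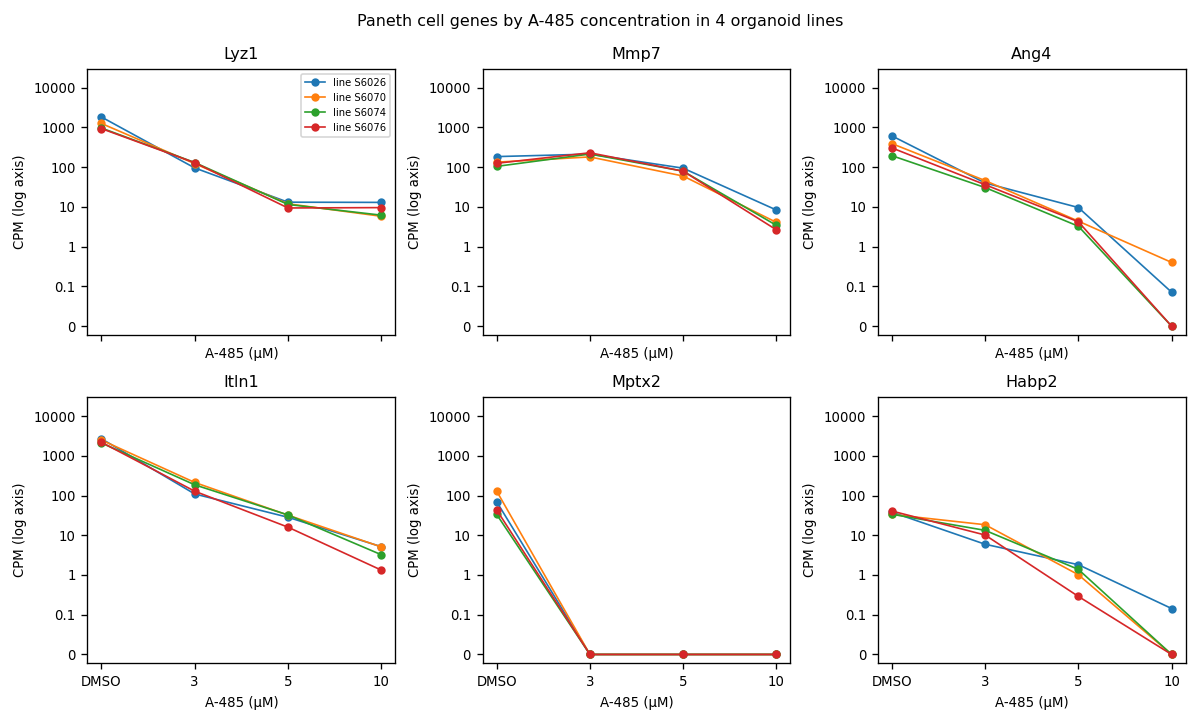
Level of the 6 genes in organoids after 4 days with DMSO or 3, 5 or 10 µM A-485, in TMM-scaled CPM on a log axis, 1 line per organoid line and values of 0 at the bottom tick. Mptx2 is at 0 at every dose, Lyz1 runs from 9.43 to 13.2 CPM at 5 µM and from 5.83 to 13.0 at 10 µM, and Mmp7 is higher than with DMSO in 4 of 4 lines at 3 µM before it drops.

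Ratios of each gene to Lyz1 within a library were compared after the values had been seen, in 40 exact two-sided permutation tests. The mean log2 ratio of Mmp7 to Lyz1 was -3.16 ± 0.18 (SD, n = 4) with DMSO, 0.81 ± 0.25 at 3 µM, 2.75 ± 0.31 at 5 µM and -0.96 ± 0.60 at 10 µM. No dose overlapped DMSO, and each exact p was 0.0286, the smallest that 4 against 4 libraries allow (adjusted 0.0544). In the second organoid set the same ratio was -1.74 ± 0.30 in flox/flox, -3.41 ± 0.17 in flox/+ and -3.24 ± 0.14 in Eif4g2(+/+) organoids, without overlap and with the same exact p. In Rosa26(CreER) crypts the ratio of Mptx2 to Lyz1 was -5.85 ± 0.45 in flox/flox (n = 4) and -4.35 ± 0.12 in flox/+ crypts (n = 5), without overlap (exact p = 0.0159, adjusted 0.0544), while that of Habp2 to Lyz1 was -7.72 ± 0.16 and -7.77 ± 0.17 (exact p = 0.714). That ratio was lower after deletion, without overlap, by 1.45 in Vil1(CreER) crypts, 1.94 in the first organoid set, and 1.02 and 1.32 against flox/+ and Eif4g2(+/+) organoids, and higher by 1.62 at 3 µM A-485. The ratio of Mmp7 to Lyz1 was higher after deletion by 0.89 in Rosa26(CreER) crypts, 0.98 in Vil1(CreER) crypts and 0.86 in the first organoid set, with overlapping groups in each. None of the 40 ratios passed an adjusted p of 0.05. In Vil1(CreER) crypts and the first organoid set none could pass, as the smallest exact p possible was 0.0571 and 0.1.

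**Figure D4:**
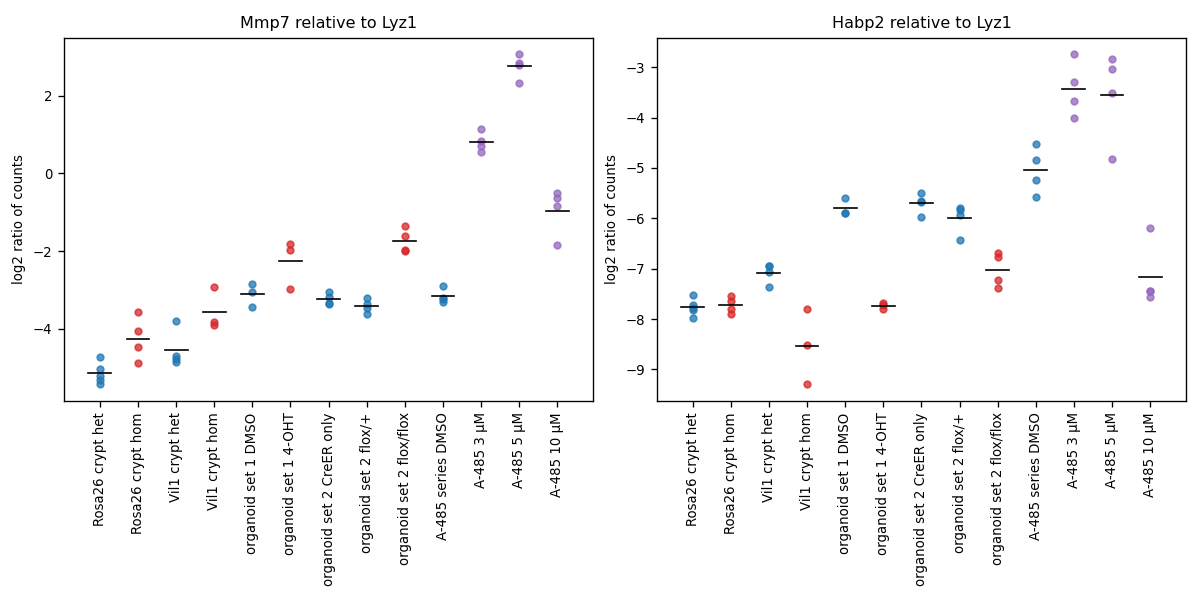
Log2 ratio of Mmp7 and of Habp2 counts to Lyz1 counts within each library, for crypts (het, flox/+; hom, flox/flox), organoids and A-485 groups, with points for libraries and bars for group means. Mean ratios of Mmp7 to Lyz1 are 0.81, 2.75 and -0.96 at 3, 5 and 10 µM A-485 against -3.16 with DMSO.

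Fetal spheroid lines differed widely among themselves. With DMSO, Lyz1 was at 2.37 at the lowest, 53.8 at the median and 925 at the highest (CPM) in the 6 flox/flox lines and at 33.9, 2.49, 12.6, 999.5 and 1309 CPM in flox/+ lines 1 to 5. Flox/flox lines 1 and 3 and flox/+ lines 4 and 5 had the highest levels of their genotype of all 6 genes with DMSO. Against flox/+ organoids that had also received 4-OHT, flox/+ spheroids showed 0 of the 6 genes called by edgeR and 0 with an unadjusted p under 0.05 (22.8% of genes were called lower), with a 95% interval of the log2 difference of -5.54 to 0.58 for Lyz1.

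In flox/flox spheroids the genes were lower with 4-OHT within lines. Lyz1 was at 78.5, 0, 379, 0.56, 0.315 and 8.18 CPM with 4-OHT and at 366, 2.37, 925, 19.1, 10.5 and 88.5 CPM with DMSO in lines 1 to 6. Each line was lower with 4-OHT, yet the groups overlapped: lines 1, 3 and 6 with 4-OHT lay above line 2 with DMSO, and line 3 (S9484-A) above 5 of the lines with DMSO. Mmp7 was at 27.8, 1.45, 139, 1.16, 1.10 and 4.88 against 163, 60.7, 261, 23.0, 21.3 and 47.1 CPM, Itln1 at 66.4, 0, 170.3, 5.08, 0.63 and 2.41 against 633, 22.7, 1277, 38.6, 28.7 and 100.2 CPM, and Habp2 at 0.628, 0, 3.64, 0, 0 and 0.157 against 22.4, 0.867, 28.7, 0.49, 1.65 and 7.09 CPM. Lyz1, Mmp7, Ang4, Itln1 and Habp2 were lower in 6 of 6 lines, and Mptx2 in 5 of 6, the remaining line being at 0 with both treatments. In line 3 the genes were 1.87-fold (Mmp7) to 7.90-fold (Habp2) lower, without Mptx2, which had 3 against 415 counts.

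Without the lines in the fit, 1 of the 6 genes was called lower, against 10.0% of 15032 tested genes: Mptx2, with 3 counts in all 6 libraries against 580, a ratio of 182 with an exact 95% counting interval of 61.8 to 883 (adjusted p = 0.0316). This call was lost with no filter on low counts (adjusted p = 0.075), Mptx2 fell below the filter when only these 2 groups were fitted, and 5 of 12 fits that each left out a library kept the call. It was lost without any 1 of the 4-OHT libraries or without DMSO replicate 3. With the line as a block, the design that the labels' line names allow, the other 5 genes fell and Mptx2 was below the filter, against 17.1% of genes called lower. The blocked log2 changes were -3.17 ± 0.60 for Lyz1, -3.58 ± 0.61 for Ang4, -4.10 ± 0.64 for Itln1, -3.31 ± 0.61 for Mmp7 and -4.66 ± 0.54 for Habp2, with adjusted p from 0.000525 for Habp2 to 0.00872 for Lyz1. Mptx1 fell as well, from 41.1 ± 51.5 to 0.0654 ± 0.104 CPM (adjusted p = 1.1e-05 without the block).

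In flox/+ spheroids 4-OHT gave 0 calls among the 6 genes by edgeR, with or without the line as a block, and 0 by DESeq2, and 0 had an unadjusted p under 0.05 (0.0% of all genes were called). Lyz1 was at 67.4, 3.03, 8.45, 450.3 and 1034 CPM with 4-OHT and 33.9, 2.49, 12.6, 999.5 and 1309 with DMSO in lines 1 to 5, lower in 3 lines and higher in 2. With the line as a block its log2 difference was -0.21 ± 0.32. The difference between genotypes in the effect of 4-OHT was called for 0 of the 6 genes by edgeR and by DESeq2 without the lines in the fit (1 had an unadjusted p under 0.05), against 1.62% of genes. With the line as a block, a fit chosen after the data had been seen, it was called for all 6, against 10.1% of genes called in that direction. Among the 5 genes other than Mptx2 it ran from -2.89 ± 0.74 for Lyz1 (log2, adjusted p = 0.0229) to -4.27 ± 0.57 for Habp2 (adjusted p = 0.000484), the flox/flox effect being the lower. Mptx2, for which no fitted size is given because flox/flox spheroids with 4-OHT held 3 counts, had an adjusted p of 0.000176.

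Among spheroids that received 4-OHT, flox/flox and flox/+ lines differed in Mptx2 alone (6.13% of genes were called lower), at 3 against 992 counts, a ratio of 344 with an exact 95% counting interval of 117 to 1671 (adjusted p = 0.0349). Of 11 fits that each left out a library, 3 kept this call, and it was lost with no filter on low counts (adjusted p = 0.0829). Stromal markers moved with genotype in the same libraries. Their summed level over 5 genes was 0 to 5.14 CPM in flox/flox and 2.22 to 134 in flox/+ spheroids with 4-OHT, and 1.11 to 5.97 against 6.34 to 176 CPM with DMSO, while no organoid library exceeded 1.08 CPM. The collagen genes Col1a1 and Col3a1 were called lower in flox/flox spheroids with 4-OHT (log2 changes -4.60 and -4.15, adjusted p = 0.0326 and 0.0362), 2 of the 3 stromal markers tested. Flox/+ line 2 had the most stromal RNA and the least Lyz1 with DMSO of its genotype. The part of stromal transcripts in the differences was not tested. With DMSO the genotypes gave 0 calls by edgeR and by DESeq2 and 0 unadjusted p under 0.05 among the 6 (0.0% of genes were called). Against flox/flox organoids with 4-OHT, flox/flox spheroids with 4-OHT were lower in Mptx2 alone (9.45% of genes were called lower), at 0 to 0.176 against 0.866 to 2.78 CPM (adjusted p = 0.00189). The number called depended on line 3, as 5 of the 6 genes were called without it. The share of all genes called in that fit is not given here, so the 5 cannot be set against it. Each line has 1 genotype, so that line and genotype cannot be told apart in these comparisons. Line names share stems, whose meaning the labels do not give: flox/flox lines 1 and 3, the pair with the highest levels, share S9484, flox/flox lines 2, 4 and 5 and flox/+ line 1 share S9488, flox/+ lines 2, 3 and 4 share S9612, and flox/flox line 6 and flox/+ line 5 share S9020. Whether lines of a stem are independent is not stated in the labels.

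**Figure D5:**
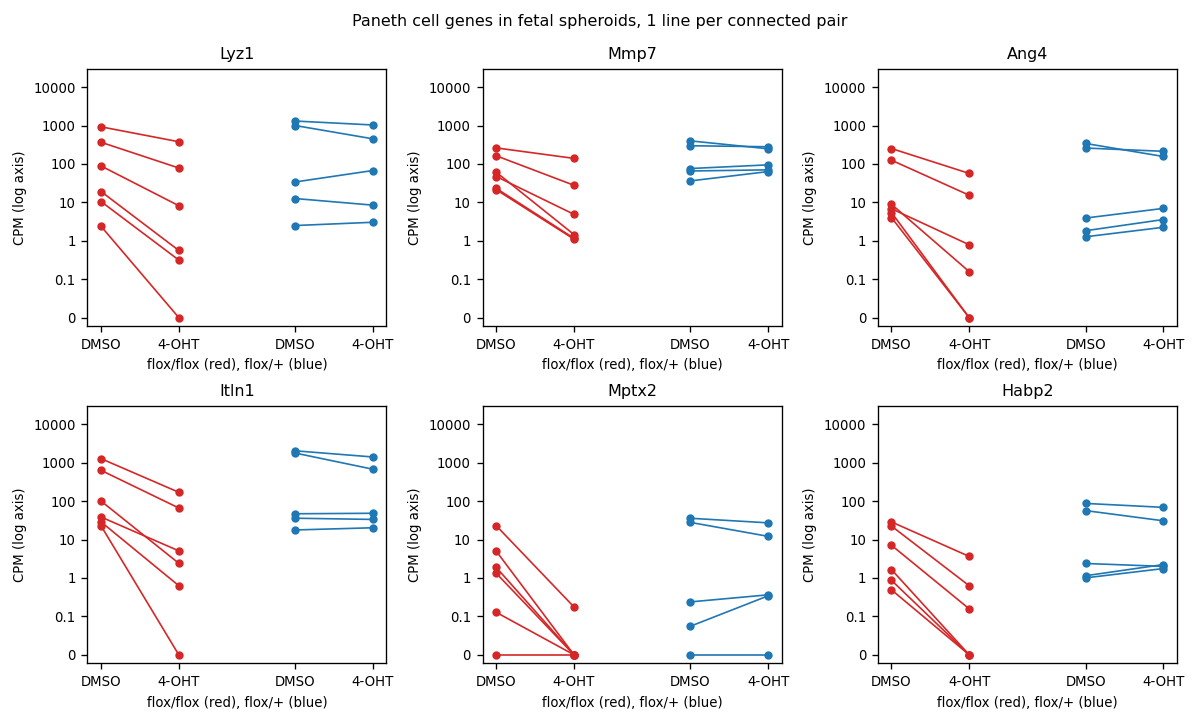
Level of the 6 genes in fetal spheroids with DMSO and 4-OHT, in TMM-scaled CPM on a log axis, with a segment joining the 2 libraries of a line and values of 0 at the bottom tick. In flox/flox lines the segments slope down for Lyz1, Mmp7, Ang4, Itln1 and Habp2 in 6 of 6 lines, and in flox/+ lines they run in both directions.

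Other genes of the Paneth lineage were counted from lists. Of 10 regulators of secretory and Paneth cells, 6 fell in Rosa26(CreER) crypts, 6 in Vil1(CreER) crypts, 6 in the first organoid set, where 1 rose, and 6 in flox/flox against flox/+ organoids, where 2 rose. The shares of all tested genes called lower were 11.6%, 17.7%, 17.2% and 24.3% in that order. The median log2 changes of the regulators were -0.98, -0.69, -0.71 and -0.65, against at most 0.04 in size over all genes tested. Atoh1, the transcription factor that starts the secretory lineage, fell in Rosa26(CreER) crypts with a log2 change of -1.40 ± 0.12 (adjusted p = 0.00025), while the change was -1.04 ± 0.16 in Vil1(CreER) crypts (adjusted p = 0.0023) and -1.71 ± 0.31 in the first organoid set (adjusted p = 0.00566), called in both. In flox/flox organoids of the second set Atoh1 was called lower against flox/+ (log2 change -0.81 ± 0.17, adjusted p = 0.00149). Against Eif4g2(+/+) organoids it was not called (log2 difference -0.19 ± 0.18, adjusted p = 0.397). Bhlha15, a factor of mature secretory cells, fell in all of these, by 2.06 on the log2 scale in Rosa26(CreER) crypts and by 3.42 in the first organoid set. Sox9, which Paneth cells need to form, fell in Rosa26(CreER) crypts (log2 change -1.37, adjusted p = 0.00375) but had a log2 difference of 0.06 in the first organoid set (adjusted p = 0.805). Fzd5, the Wnt receptor of Paneth cell maturation, rose by 1.15 on the log2 scale in flox/flox against flox/+ organoids (adjusted p = 1.69e-06).

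At 3 µM A-485, where 8.42% of all genes were called lower and 10.8% higher, 3 of the 10 regulators fell (Bhlha15 by 1.18, Ephb3 by 0.73 and Fzd5 by 0.36 on the log2 scale), while Atoh1 had a log2 difference of 0.17 (adjusted p = 0.846). At 10 µM, where 32.6% of genes were called lower, 7 fell, Atoh1 by 6.62 (adjusted p = 2.34e-07). In flox/flox spheroids 5 fell with 4-OHT, against 10.0% of genes, among them Atoh1 (log2 change -2.56, adjusted p = 0.0046) and Gfi1 (-2.78, adjusted p = 0.0106). Goblet markers, another secretory type, went another way at 3 µM A-485: of 7, 3 rose and 1 fell, and their summed level was 5276 ± 850.4 CPM with DMSO and 9615 ± 3359 at 3 µM. In Rosa26(CreER) crypts 4 of the 7 fell, against 11.6% of genes, and at 10 µM A-485 all 7 fell, against 32.6%.

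Of 6 ligands that Paneth cells present to stem cells, 3 fell in Rosa26(CreER) crypts, where 11.6% of genes were called lower. These were Wnt3 (log2 change -2.22, with an adjusted p of 0.00559), Dll4 (-1.85, adjusted p = 0.000305) and Dll1 (-1.12, adjusted p = 0.000593). In Vil1(CreER) crypts 4 of the 5 tested fell, and in the first organoid set 3 of 5, against 17.7% and 17.2% of genes. With 3 µM A-485, 1 of the 5 tested fell and 1 rose, where 8.42% of all genes were called lower and 10.8% higher. At 10 µM 3 fell and 1 rose, against 32.6% and 29.4% of genes. Wnt3 fell by 1.26 on the log2 scale at 3 µM (adjusted p = 0.0371) and by 8.98 at 10 µM (adjusted p = 6.18e-09), where Dll4 fell by 3.82 and Dll1 by 2.79. Tgfa, an EGF receptor ligand, rose with A-485, by 0.95 on the log2 scale at 3 µM (adjusted p = 9.28e-05) and by 2.70 at 10 µM (adjusted p = 4.82e-11). Of 6 other secreted or antimicrobial genes of these cells, 4 fell in Rosa26(CreER) crypts, 5 in Vil1(CreER) crypts, 5 in organoids with 4-OHT (first set) and 5 with A-485 at 3 µM, against 11.6%, 17.7%, 17.2% and 8.42% of genes. The colipase gene Clps fell in each, by 2.28, 4.60, 2.68 and 4.68 on the log2 scale. Of 6 markers of enteroendocrine cells, a further secretory type, 6 fell in the crypts of either kind of mouse, against the same 11.6% and 17.7%. The summed level of 5 crypt stem cell markers was 433 ± 296 CPM in flox/flox and 4889 ± 1027 in flox/+ crypts of Rosa26(CreER) mice, and 442 ± 137 and 5148 ± 272 in Vil1(CreER) crypts. Of these markers, 4 and 3 of the 5 were called lower, against 11.6% and 17.7% of genes. The part of stem cell markers in the falls of the Paneth genes was not tested.

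Likeness of pattern was measured as the root mean square difference between centred log2(mean CPM + 1) profiles over the 21 groups, among 12219 genes. The 6 genes themselves were left out of the nearest genes, and distances among them are given at the end. Defensins were among the 3 nearest genes of 5 of the 6. Nearest to Mptx2 were Defa22 (0.50), Defa29 (0.52) and Defa34 (0.53), and nearest to Lyz1 was Defa24 (0.99), followed by Mcm2 (1.02). Nearest to Mmp7 were Slc12a2 (0.60), Top2a (0.61) and Defa34 (0.61), the first of them a crypt ion transporter and Top2a a gene of dividing cells. Nearest to Ang4 was Olfm4 (1.23), a crypt stem cell marker, nearest to Itln1 was Mcm2 (0.86), and nearest to Habp2 was Hpd (0.64), with no defensin among its nearest 3. Within the set, Lyz1 and Itln1 were most alike (0.73) and Ang4 and Habp2 least (2.61).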

How the data were processed

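Poly(A) RNA was read in strand-specific libraries, and the deposited tables hold whole-number read counts per gene with the gene's length, as the authors made them. Alignment used HISAT2 2.0.5 and the build GRCm38/mm10, per the submitters' processing notes. The counting program, its strand setting, its treatment of reads that fit several places and its annotation are not given in the sources used here, and these bear on Lyz1, Ang4, Mptx2, Mmp7 and Habp2.

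Groups came from the labels of 92 libraries, and 26 comparisons were made, each fitted on the whole table with edgeR 4.0.16 in R 4.3.3 (filterByExpr by group, TMM, robust quasi-likelihood test, Benjamini-Hochberg adjustment over all genes tested, called under 0.05). The SE is the absolute log2 fold change divided by the square root of the F statistic. Crypt-to-villus contrasts and interactions of genotype and tissue had the animal as a block. Organoids and spheroids of the same line in DMSO and 4-OHT or A-485 are paired by their line names (correlations of deviations from group means 0.32 to 0.50 in the first organoid set, 0.38 to 0.78 in flox/flox and 0.63 to 0.86 in flox/+ spheroids, and 0.056 to 0.32 at 3 µM A-485), and the fit with that block is given where it changes a call. The genes described and the lists were chosen with earlier results of these data known. All 6 genes were named, and any regulator, niche ligand or relative could be named. Of other lists the rule allowed the sum or defining markers, so Clps was named after its values were seen. The genes nearest in pattern were taken among genes with a mean of at least 1 CPM in a group of every table. Alternatives were DESeq2 1.42.0 and its size factors, no filter, the block, covariates and leaving out each library. Fitted folds are not printed where a group held 3 counts or fewer. Instead the text gives a ratio with an exact 95% counting interval or a bound from 3 counts per library. These cover counting error only. Ratios to Lyz1 used counts + 0.5. The test was checked on simulated counts. No 2 libraries of a group agreed within sampling noise.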

Additional observations from a re-analysis of the deposited data

Results flagged for a closer look

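Some libraries stood far from the others of their group. The test looked at the gap between the highest or lowest library and its neighbour, as a share of the range of the group. Of 105 combinations of gene and group, 12 passed a threshold set for about 1 in 20 by chance. The genes share libraries, so the 12 are not separate events, and an excess over chance was not tested. Replicate 3 of flox/flox spheroids with 4-OHT, line S9484-A, was highest for all 6 genes and stood far above the other lines in 5, with Lyz1 at 379, Mmp7 at 139, Ang4 at 56.7, Habp2 at 3.64 and Mptx2 at 0.176 CPM, and the same line was highest with DMSO in Mptx2 at 22.9 CPM. In Vil1(CreER) mice, flox/flox villus replicate 4 was the highest of 6 for Lyz1 at 74.5 and Itln1 at 14.7 CPM, and flox/+ crypt replicate 1 was the highest of 4 for Mptx2 at 273 CPM. In Rosa26(CreER) mice, flox/+ crypt replicate 5 was the lowest of 5 for Mptx2 at 418 CPM, and flox/flox villus replicate 5 the highest of 5 for Habp2 at 0.86 CPM. At 10 µM A-485, replicate 1 was the highest of 4 for Habp2 at 0.143 CPM, the other three being at 0.

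The effect of Eif4g2 deletion differed between crypts and villi by a test of the difference itself in 3 cases. In Rosa26(CreER) mice this was Mmp7, with a log2 difference of crypt effect minus villus effect of -1.80, against 3.06% of genes called in that direction, and 4 of 9 fits that each left out an animal kept the call. In Vil1(CreER) mice these were Lyz1, at -1.32, and Habp2, at -2.24, against 7.98% of genes, and 1 and 2 of 7 such fits kept the calls.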

How the results depend on the processing

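Of the values recomputed under other settings, 1939 kept direction and side of the threshold, 68 lost the call, 33 gained it and 32 changed sign, all 32 without a call. In crypts and organoids with both copies deleted, and at each A-485 dose, the number of the 6 genes called stayed within 1.5 times under every setting run.

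Elsewhere the number called moved, and the cause was not tested. In Vil1(CreER) villi 3 genes were called with the replicate number as a block, against 5 without. In flox/flox spheroids with 4-OHT against DMSO, the number was 2 by DESeq2, 0 with no filter on low counts, 0 with only the 2 groups fitted and 5 with the line as a block, against 1. Between genotypes with 4-OHT it was 2 by DESeq2, 0 with no filter, 0 with only the 2 groups and 0 with the block, against 1. The interaction of genotype and tissue gave 3 genes by DESeq2 and 2 without the animal block in Rosa26(CreER) mice, against 1, and 1 with no filter and 0 without the block in Vil1(CreER) mice, against 2. The interaction of genotype and 4-OHT in spheroids gave 6 with the line as a block, a fit chosen after the data were seen. Same-numbered libraries of different genotypes share only a number, and not every one correlated best with its own number (2 of 4 in Rosa26(CreER) crypts, 0 of 4 between flox/flox and flox/+ organoids). The block changed the count in no other comparison by more than 1.5 times.

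Leaving out each library or animal in turn gave 1 to 2 genes in Rosa26(CreER) villi, with 1 when any of flox/+ replicates 1 to 3 or flox/flox replicates 1 to 4 was absent, and 3 to 5 in Vil1(CreER) villi, with 3 when flox/+ replicate 1 or 2 or flox/flox replicate 1 or 6 was absent. In flox/flox spheroids with 4-OHT against DMSO it gave 0 to 2, with 2 without 4-OHT replicate 3 and 0 without any other 4-OHT library or without DMSO replicate 3. Between spheroid genotypes with 4-OHT it gave 0 to 2, with 2 without flox/flox replicate 3 and 0 without any other flox/flox library or without flox/+ replicate 4 or 5. It gave 0 to 2 for the tissue interaction in either kind of mouse and 1 to 5 for flox/flox spheroids against organoids, the highest without spheroid replicate 3.

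Uncalled log2 differences that changed sign, with the range over left-out libraries, were Ang4 in Rosa26(CreER) villi (-0.58 to 0.081, and 0.14 with a Y-linked covariate) and Lyz1 between flox/+ and Eif4g2(+/+) organoids (-0.091 to 0.11). In flox/+ spheroids with 4-OHT against DMSO these were Lyz1 (-1.83 to 0.27), Mmp7 (-0.55 to 0.35, and 0.087 with the block), Ang4 (-1.52 to 0.21), Mptx2 (-1.99 to 0.20) and Habp2 (-1.69 to 0.48). Between spheroid genotypes with DMSO, Ang4 ranged from -1.98 to 0.021 and was 0.92 with the block, where Itln1 was 0.0046. Among tissue interactions, Habp2 in Rosa26(CreER) mice ranged from -0.45 to 0.70 and was -0.016 with no filter. In Vil1(CreER) mice Mmp7 ranged from -0.75 to 0.68, Ang4 from -1.31 to 1.69 (0.19 by DESeq2) and Itln1 from -0.46 to 0.26 (0.087 without the block). The spheroid interaction of Lyz1 ranged from -3.18 to 0.24 and Mmp7 in flox/+ spheroids against organoids from -0.43 to 0.088.

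Over all genes, calls moved most for flox/+ against Eif4g2(+/+) organoids (16, but 145 by DESeq2, 60 with no filter and 30 with the block), the Rosa26(CreER) interaction (772, but 2102 by DESeq2 and 1904 without the block), the spheroid interaction (243, but 572 by DESeq2, 123 with no filter and 2758 with the line block) and spheroid genotypes with 4-OHT (1577, but 140 with the block and 880 with only the 2 groups). The first organoid set gave 5422 calls and 3079 with the A-485 libraries in the fit, Rosa26(CreER) villi 4504 and 2967 with a Y-linked covariate, the Vil1(CreER) interaction 2235 and 3368 by DESeq2, and flox/flox spheroids 2864 and 4649 with the block. In Rosa26(CreER) crypts 3198 genes were called, and the lowest counts with a library left out were 1937 without flox/+ replicate 5, 2010 without flox/+ replicate 2 and 2027 without flox/flox replicate 4. In Vil1(CreER) crypts 4960 were called, and 3223 without flox/flox replicate 1. Low counts limit Mptx2 and Habp2 in villi, spheroids and at 10 µM A-485.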
